A study of Schmidtea mediterranea with 5 samples.

Results

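Among the transcripts of the planarian Schmidtea mediterranea, 38 stood at no more than 50% of every other library in the dark control. They were chosen by the deposited values themselves. Averaged across all 5 libraries, the level had to be at least 1 CPM (CPM is the number of reads per 1000000 reads of a library). The light library and each of the 3 dark-return libraries also had to be at least 2-fold above the dark control on the CPM + 1 scale. Of 82843 transcripts in the deposited table, 21307 had a mean of at least 1 CPM, and the 38 are 0.178% of these. Of all transcripts, 0.643% were at least 2-fold above the control in light, and 0.746%, 0.526% and 0.39% were after 1, 2 and 8 days in the dark, against 38 of 38 by construction. All 4 differences from the control were thus used for the choice. All 4 also share the 1 control library, so a low value in that library alone would raise every one of them. The differences are given below as a description, with no test. Only the order of the 4 later libraries among themselves was left free by the rule.

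The animals were whole asexual planarians of the clonal CIW4 strain, and all groups had been starved for 1 week before collection, per the labels' growth protocol. The dark control, labelled WT (wild type), was untreated and kept in the dark. The titles of the 4 other groups name no genotype. The light library came from animals after 8 days of the depigmentation treatment, which was light exposure. The other libraries came from animals given the same 8 days of light and then kept in the dark for 1, 2 or 8 days, and the series' design text calls these animals starved. The control therefore differs from the 4 other groups both in light exposure and possibly in time without food. These cannot be told apart in this design. The 4 other groups also differ among themselves in days since light began, and possibly in time without food. Time in the dark cannot be told apart from these either. A treatment text attached to the samples describes gene knockdown and amputation, which does not match the sample titles, and it was not used.

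For each library 3 biological replicates were mixed in equal amounts, so every condition is 1 library and the spread between animals is not measured. No p-value is given. The libraries held 38447289 to 50045371 reads. Of the 38 transcripts, 36 had at least 100 reads in every library, so counting error is small for nearly all of them, and the 95% intervals below (exact conditional binomial) cover counting error only. Reads carry no molecular identifiers, so the intervals may be too narrow. In RNA from whole animals, fewer cells of a type and less RNA per cell cannot be told apart.

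Planarian body colour comes from pigment cells that lie beneath the epidermis and contain porphyrins as well as ommochrome-type pigment. Prolonged light damages these cells through the porphyrins they make, the animals turn pale, and new pigment cells made from neoblasts, the stem cells of the adult body, restore the colour in the dark. Starved planarians also shrink while keeping their proportions, replacing their cells from the same stem cells. The deposited table pairs its transcript numbers (SmedASXL) with no gene name, function or sequence. The 38 are therefore known here only by number, and neither a pathway nor a cell type is assigned to them, nor could the planned marker lists for pigment cells and other cell types be applied. Contig lengths were not used, so levels are compared between libraries for 1 transcript and not between transcripts.

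The set took up more of the reads in all 4 later libraries, which its rule requires, but that share was largest at the end of light. Together the 38 held 0.169% of the reads in the dark control and 0.604% in the light library. The share was 0.511% after 1 day in the dark, 0.499% after 2 days and 0.477% after 8 days. SmedASXL_042310 alone held 10.6% of the set's reads in the control and 17.9% in the light library. Without it, the summed CPM was 3.28-fold the control in light and 2.91-, 2.84- and 2.68-fold after 1, 2 and 8 days, so the order of the libraries was the same.

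By median over the 38, the ratio to the control on the CPM + 1 scale was 2.64 in light, 2.79 after 1 day, 2.53 after 2 days and 2.34 after 8 days in the dark. Over all 21307 transcripts the same medians were 1.02, 1.04, 1.03 and 1.05. A ratio of at least 4-fold was seen for 8 of the 38 in light, where 0.0751% of all transcripts reached it. It was seen for 4 of the 38 after 1 day, for 4 after 2 days and for 4 after 8 days, where 0.0375%, 0.0375% and 0.0282% of all transcripts reached it. These shares come from the contrasts that chose the set, and nothing is read from them.

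**Figure D1:**
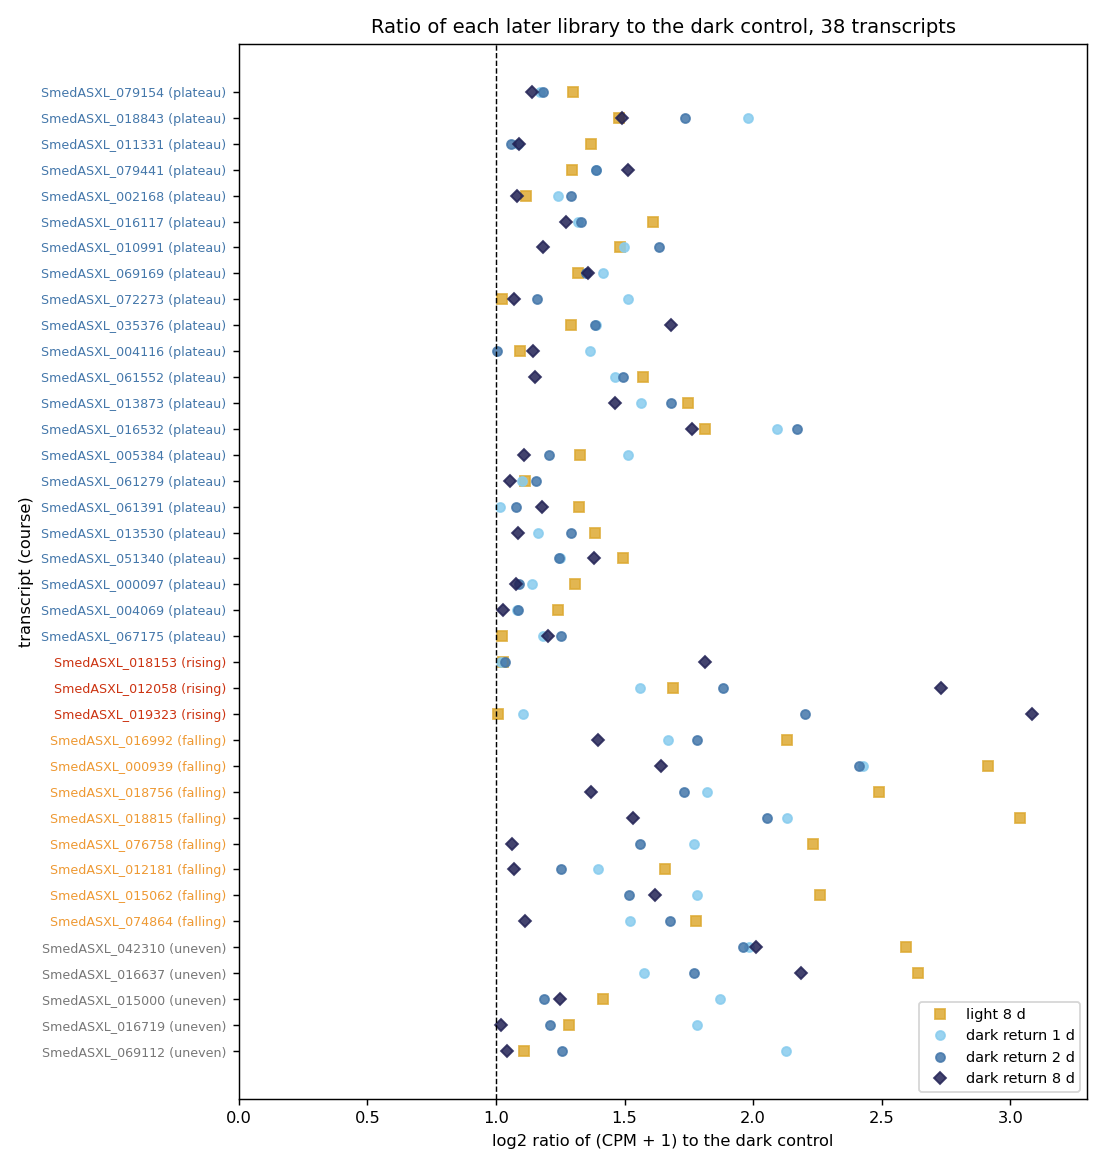
Log2 ratio of (CPM + 1) of the light library and the 3 dark-return libraries to the dark control (x axis) for each of the 38 transcripts (y axis), ordered by course and coloured by it. Each point is 1 library, and the dashed line is the 2-fold limit of the rule; most plateau transcripts sit between 2-fold and 4-fold with their 4 points close together, the falling ones have the light point at the right, and the 3 rising ones have the 8-day point at the right.

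To separate transcripts that hold a level from those that move on, the 4 libraries from the end of light onwards were sorted into 4 courses on the CPM + 1 scale. A course is the order of separate libraries, not a series taken from the same animals. It was called rising where 8-day dark return was at least 1.5-fold the light library, and falling where it was at least 1.5-fold under it. It was called plateau where the highest of the 4 libraries was under 1.5-fold the lowest, and uneven otherwise. Of the 38, 22 held a plateau, 3 were rising, 8 were falling and 5 were uneven. Over all transcripts 95.5% held a plateau, 1.99% were rising, 1.07% were falling and 1.39% were uneven. The label of the set as staying high thus holds in that every member is, by the rule, still at least 2-fold above the control after 8 days, but only 3 of 38 were higher by 1.5-fold or more than at the end of light.

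**Figure D2:**
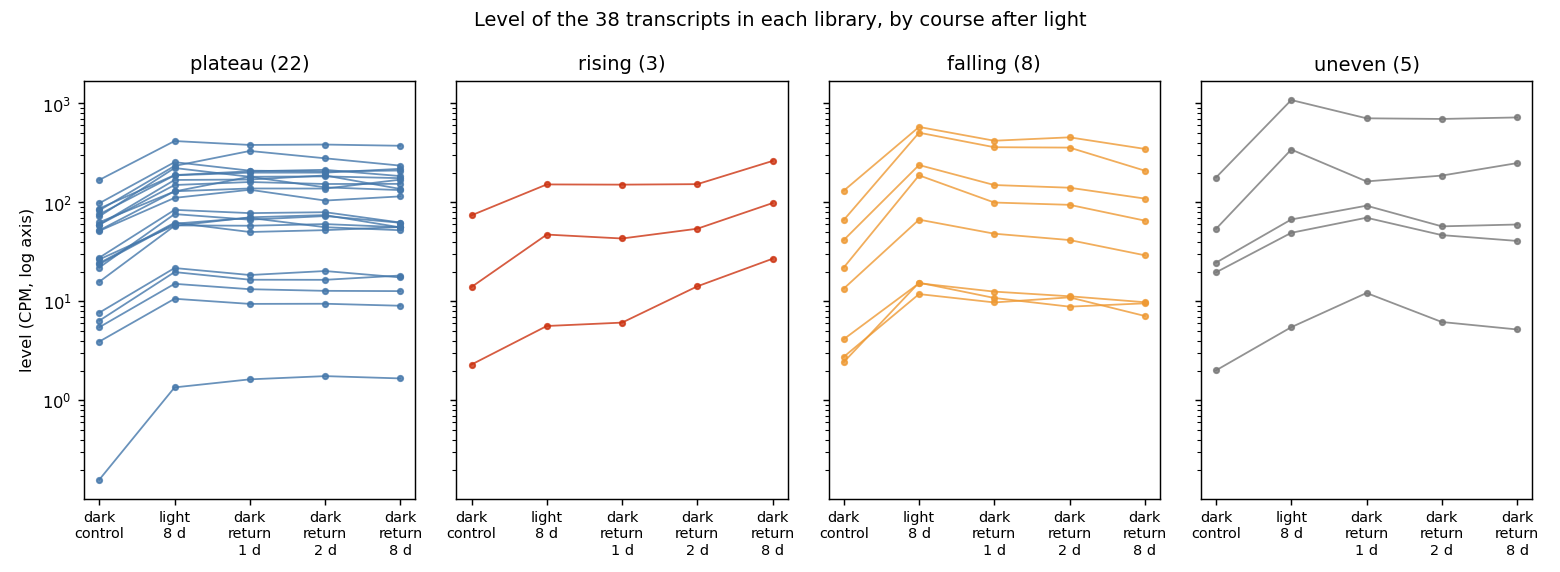
Level in CPM (y axis, log scale) of the 38 transcripts in the 5 libraries (x axis), in 1 panel per course, with 1 line per transcript. Each point is 1 pooled library, so no error between animals is drawn. After light, 22 lines vary by less than 1.5-fold on the CPM + 1 scale. A further 3 climb to the 8-day library and 8 decline from the light library. Of the 5 uneven ones, 3 peak in the 1-day library.

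The 22 plateau transcripts reached their level by the end of light and stayed near it. The highest of their 4 later libraries was 1.07- to 1.42-fold the lowest, with a median of 1.23, and for 13 of the 22 it was less than 25% above the lowest. By median the 8-day library stood at 0.916 of the light library on the CPM + 1 scale, with a range from 0.747 to 1.31. The 95% counting interval of the ratio of CPM lay wholly within 1.5-fold of no difference in either direction for 21 of the 22. The exception was SmedASXL_067175, whose 52 reads in light and 80 reads after 8 days leave an interval of 0.858 to 1.78. Within the plateau, the interval lay below 1 for 11 transcripts, above 1 for 2 and across 1 for 9. The same split was not counted over all transcripts, so nothing is read from it.

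The flattest courses are shown by a few examples. SmedASXL_069169 had 59.6 CPM in the dark control, 150.1 CPM in light, and 161, 154 and 154 CPM at the 3 dark-return times (1, 2 and 8 days, the order used throughout). Its 4 later libraries were within 1.07-fold of one another, and its 8-day level was 1.03-fold that of light (0.992 to 1.06). SmedASXL_079154 had 169 CPM in the control and 418 CPM in light, followed by 381, 385 and 374 CPM. The later 3 libraries were nearly level with one another, each a little under the light library.

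SmedASXL_002168 stood at 86.8 CPM in the control, 189 CPM in light, and 207, 214 and 185 CPM in the dark. Its 8-day and light libraries differed by no more than counting error, at a ratio of 0.976 (0.946 to 1.01). SmedASXL_010991 stood at 59.7 CPM in the control and 169, 171, 187 and 137 CPM in the later libraries, so the 8-day library was the lowest of the 4.

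For several plateau transcripts, of which a pair is shown here, the larger part of the difference from light was already present after 1 day. SmedASXL_011331 had 98.2 CPM in the control and 255 CPM in light, then 209.6, 206 and 210.3 CPM in the dark. SmedASXL_016117 had 72.3 CPM in the control and 223 CPM in light, then 182, 183 and 176 CPM. For both, the 3 dark-return libraries lay closer to each other than to the light library.

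Another pair drifted upwards within the plateau. SmedASXL_079441 had 75.9 CPM in the control, 188 CPM in light, 200.2 CPM after both 1 and 2 days, and 219 CPM after 8 days. SmedASXL_035376 had 52.3 CPM in the control and 129.7, 138, 138 and 170.0 CPM in the later libraries. Their 8-day levels were 1.16-fold (1.13 to 1.20) and 1.31-fold (1.27 to 1.36) those of light, and they are the plateau transcripts whose counting interval lay above 1. They also had similar courses across all 5 libraries, since the quotient of their CPM varied by 1.13-fold.

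SmedASXL_018843 was at the edge of the plateau, with 83.2 CPM in the control, 234 CPM in light, and 331, 279 and 236 CPM in the dark. Its highest later library was 1.42-fold the lowest, and the 8-day level was again that of light. The 14 plateau transcripts beyond the 8 with the highest mean levels, SmedASXL_035376 among them, had 0.158 to 63.1 CPM in the control and 1.35 to 129.7 CPM in light. After 8 days they had 1.67 to 170.0 CPM.

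Of these 14, SmedASXL_016532 stood farthest above the control at its lowest, with 15.8 CPM in the control, 58.1 CPM in light, and 70.8, 74.6 and 56.0 CPM in the dark. Its lowest ratio to the control on the CPM + 1 scale was 3.39, and its 8-day and light libraries differed by no more than counting error, at 0.963 (0.910 to 1.02). SmedASXL_061552 had 27.7 CPM in the control and 84.2, 78.0, 79.7 and 62.6 CPM later, so it was level until 2 days and had the lowest 8-day ratio to light of the plateau course, 0.744 (0.708 to 0.782). SmedASXL_013873, with 22.0 CPM in the control and 76.3, 67.0, 72.8 and 62.4 CPM later, was also lowest after 8 days. Both thus lay at the lower side of the plateau without reaching the falling course.

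SmedASXL_005384 had 23.8 CPM in the control and 61.1, 69.8, 56.2 and 52.4 CPM later, with its highest value after 1 day. SmedASXL_061279 had 26.6 CPM in the control and 58.6, 58.2, 60.5 and 56.2 CPM later, a course nearly without change after light. At lower levels, SmedASXL_013530 had 7.70 CPM in the control and 21.7, 18.5, 20.3 and 17.5 CPM later. SmedASXL_051340 likewise had its highest value in light, with 6.39 CPM in the control and 19.8, 16.6, 16.5 and 18.3 CPM later. SmedASXL_067175, the 1 member under 1 CPM in the control, had 0.158 CPM there (7 reads) and 1.35, 1.63, 1.76 and 1.67 CPM later. Its ratio of CPM to the control was 8.56 in light and 10.5 after 8 days, but on the CPM + 1 scale of the rule its lowest ratio was 2.03.

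Only 3 transcripts were rising in the dark, and all 3 had their highest level in the 8-day library. SmedASXL_019323 had 2.30 CPM in the control, 5.64 CPM in light, and 6.11, 14.2 and 27.0 CPM in the dark. It is the 1 member of the rising course with no lower value at any step, a course found for 1.07% of all transcripts. Its 8-day level was 4.78-fold that of light (4.14 to 5.55) and 11.7-fold that of the control.

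SmedASXL_012058 had 14.0 CPM in the control, 47.4 CPM in light, and 43.2, 54.3 and 98.6 CPM in the dark. The 1-day library was slightly under light, and the 8-day library was 2.08-fold above it (1.97 to 2.20). SmedASXL_018153 had 74.2 CPM in the control and 152, 151 and 153 CPM in light and after 1 and 2 days. It was thus level through the first 2 days, and then had 263 CPM after 8 days, 1.73-fold the light library (1.67 to 1.78). For all 3 the step between 2 and 8 days was between 1.71- and 1.84-fold on the CPM + 1 scale, while the step from light to 1 day was between 0.915- and 1.07-fold.

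The 8 falling transcripts were highest in light and came part of the way down while staying above the control. SmedASXL_018815 had 22.0 CPM in the control, 188 CPM in light, and 99.8, 94.6 and 65.5 CPM in the dark. Its 8-day level was 0.349 of that in light (0.334 to 0.364), the lowest such ratio of the 38, and 2.98-fold the control. SmedASXL_000939 had 66.5 CPM in the control, 507 CPM in light, and 362, 358 and 209.5 CPM in the dark. SmedASXL_018756 had 41.7 CPM in the control, 239 CPM in light, and 150.0, 141 and 109 CPM in the dark.

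These 3 share a course in which the 1-day library lies under light, the 2-day library is near the 1-day library, and the 8-day library is lower again. Like these 3, SmedASXL_076758 was lower at each of the 3 steps. It had 13.5 CPM in the control, 67.0 CPM in light, and 48.3, 41.7 and 29.2 CPM in the dark. SmedASXL_016992 had 131 CPM in the control and 579.5, 421, 455 and 348 CPM in the later libraries, with the 2-day library above the 1-day library. The 8-day ratio to light was 0.600 (0.588 to 0.612) for this transcript and 0.436 (0.409 to 0.466) for SmedASXL_076758.

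The other 3 falling transcripts have fewer reads and wider intervals. SmedASXL_012181 had 4.15 CPM in the control and 15.2, 12.6, 11.3 and 9.81 CPM in the later libraries, with an 8-day ratio to light of 0.644 (0.569 to 0.728). SmedASXL_015062 had 2.44 CPM in the control and 15.5, 10.8, 8.85 and 9.56 CPM later. SmedASXL_074864 had 2.75 CPM in the control and 11.9, 9.76, 11.0 and 7.12 CPM later. By the ratio of CPM, the 8 stood at 2.17- to 3.92-fold the control after 8 days. On the CPM + 1 scale, a falling member must by arithmetic have been at least 3-fold above the control in light, because it has to stay 2-fold above it. Of the 14 members that were, 8 were falling, 3 held a plateau, 2 were uneven and 1 was rising.

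Of the 5 uneven transcripts, 3 stood apart in the 1-day library. SmedASXL_015000 had 24.6 CPM in the control, 67.3 CPM in light, and 92.8, 57.3 and 59.9 CPM in the dark. SmedASXL_016719 had 19.7 CPM in the control and 49.3, 70.1, 46.8 and 40.9 CPM in the later libraries. SmedASXL_069112 had 2.01 CPM in the control and 5.49, 12.2, 6.19 and 5.21 CPM in the later libraries. All 3 stood highest after 1 day in the dark and were back near their light level by 2 days.

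With SmedASXL_072273 of the plateau course, these make 4 members whose 1-day library was at least 25% above both the light and the 2-day library, against 0.967% of all transcripts. SmedASXL_072273 had 63.1 CPM in the control, 129 CPM in light, and 182, 142 and 133 CPM in the dark. This 25% limit was chosen after the values had been seen. The 1-day library also enters the rule, so a high value there favours membership and this pattern alike. Nothing is therefore read from the count.

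The remaining pair of uneven transcripts had its highest level in light. SmedASXL_016637 had 54.0 CPM in the control, 343 CPM in light, and 163, 187 and 249.8 CPM in the dark. Among the 4 it was lowest after 1 day and then higher at each later library, without reaching its light level. SmedASXL_042310 had 179 CPM in the control, 1084 CPM in light, and 709, 698 and 723 CPM in the dark. Its 8-day ratio to light of 0.667 (0.657 to 0.676) lies at the limit between the falling and the uneven course, and its 3 dark-return libraries were level with one another at about 4-fold the control.

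**Figure D3:**
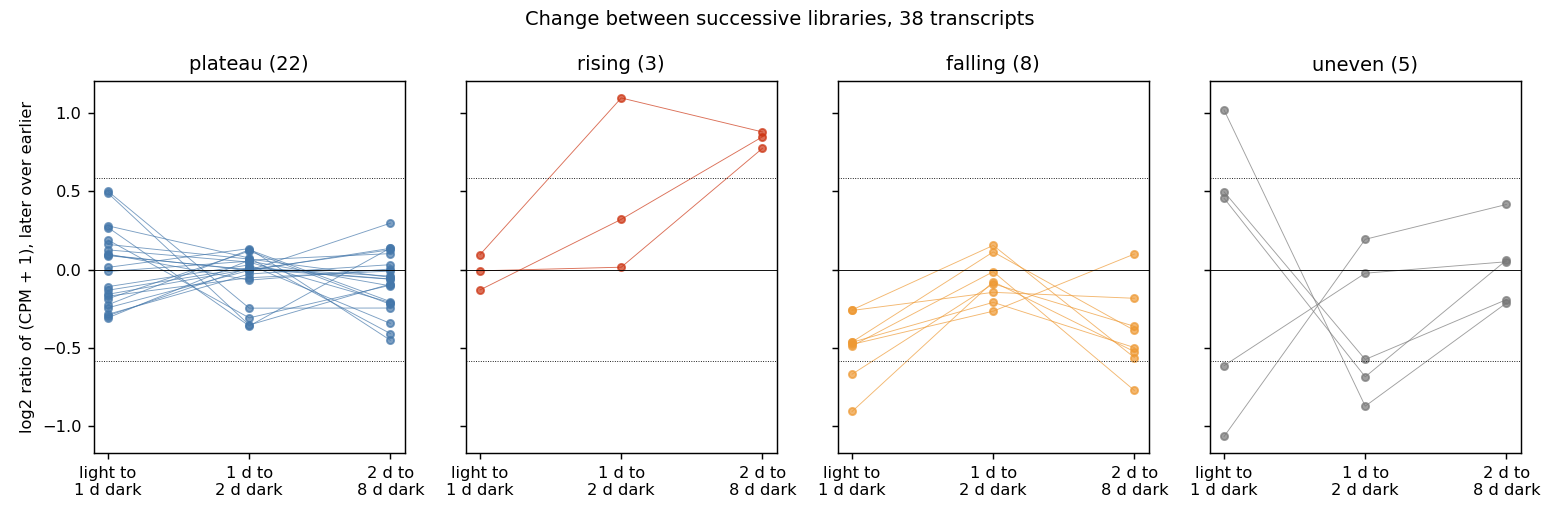
Log2 ratio of (CPM + 1) between successive libraries (y axis) for the steps from light to 1 day, from 1 to 2 days and from 2 to 8 days in the dark (x axis), in 1 panel per course, with 1 line per transcript; dotted lines mark 1.5-fold. The rising transcripts are above the upper line at the last step, the falling ones lie below 0 at the first step and mostly at the last, and 3 of the 5 uneven ones are high at the first step and low at the second.

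Step by step, the median ratio of the set was nearest to 1 between 1 and 2 days, at 0.999 on the CPM + 1 scale, against 0.914 from light to 1 day and 0.949 from 2 to 8 days. From light to 1 day 23 of the 38 were lower and 15 higher, where 46.5% of all transcripts were lower and 53.5% higher. By at least 1.5-fold, 4 were lower and 1 was higher, against 0.127% and 0.718% of all. From 1 to 2 days 20 were lower and 18 higher, against 52.6% and 47.4%, with 2 lower and 1 higher by at least 1.5-fold, against 0.188% and 0.117%. From 2 to 8 days 24 were lower and 14 higher, against 42.8% and 57.2%, with 1 lower and 3 higher by at least 1.5-fold, against 0.526% and 0.723%. The falling transcripts had median ratios of 0.722, 0.944 and 0.736 over these 3 steps on the CPM + 1 scale, and the 22 plateau transcripts had 1.00, 1.01 and 0.959.

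Between the end of light and 8 days in the dark, 28 of the 38 were lower and 10 were higher, while 41.2% of all transcripts were lower and 58.8% higher. The median log2 ratio of CPM + 1 was -0.21 for the 38 and 0.04 for all 21307. The highest of the 4 later libraries was the light library for 20 of the 38, against 22.1% of all transcripts. It was the 1-day library for 8, against 24.7%, the 2-day library for 5, against 15.2%, and the 8-day library for 5, against 38%. The light library also enters the rule, so a high value there favours membership and a low later ratio alike. The 8-day library enters it too, and a high value there favours membership and a high ratio to light. These effects run in opposite directions, and their sizes were not tested.

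The set was compared with the other transcripts raised in light to show where it differs. In the light library 137 transcripts were at least 2-fold above the control, and 88 of these were under 2-fold after 8 days in the dark. Of the 49 still above, 38 are the set and 11 missed the limit only at 1 or 2 days. The 99 light-raised transcripts outside the set comprised 52 falling, 33 plateau, 14 uneven and 0 rising ones. Their median log2 ratio of the 8-day to the light library was -0.62. The rule removes transcripts that drop under 2-fold, so this difference from the set is partly built in. Transcripts are not replicates of a condition, so it was not tested. The count of 0 rising ones is nearly fixed by the rule. A light-raised transcript that is higher still after 8 days is a member unless it was under 2-fold at 1 or 2 days.

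**Figure D4:**
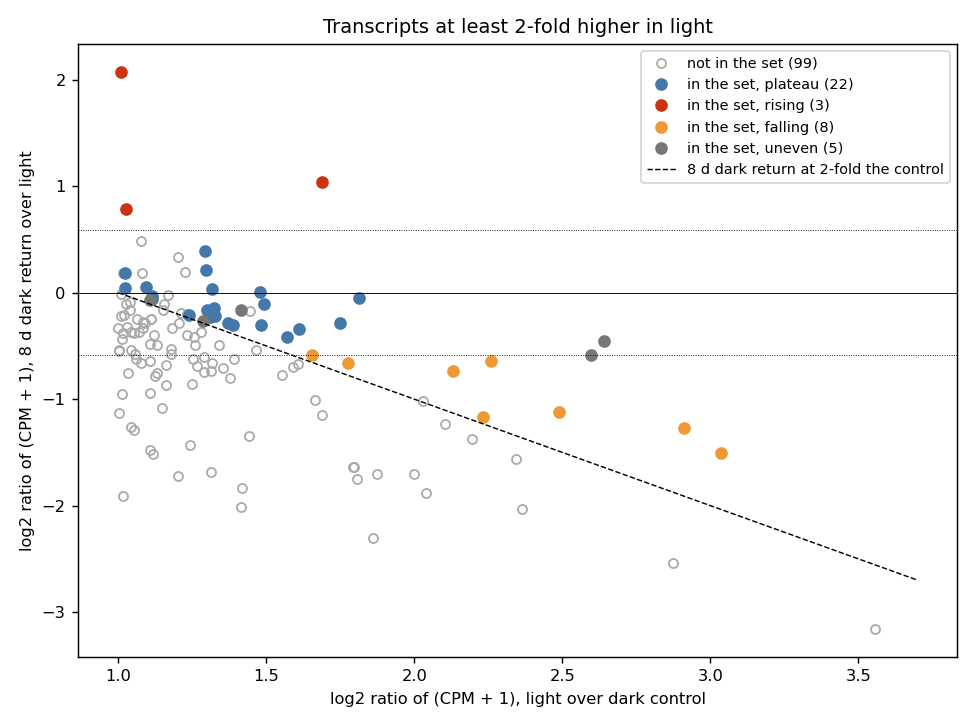
Log2 ratio of (CPM + 1) of 8-day dark return over light (y axis) against that of light over the dark control (x axis) for the 137 transcripts at least 2-fold higher in light; filled points are the 38 by course and open points the other 99. Points above the dashed line are still at least 2-fold over the control after 8 days, which the rule requires, and dotted lines mark 1.5-fold. Only the 3 rising points are above the upper dotted line, where the rule leaves little room for other transcripts.

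The mirror image of the set is the 136 transcripts whose dark control was at least 2-fold above each of the 4 other libraries. Of these, 82 held a plateau, 40 were rising, 5 were falling and 9 were uneven. Movement in the direction of the control by 1.5-fold or more was thus seen for 40 of the 136 and for 8 of the 38. Movement away from it was seen for 5 of the 136 and for 3 of the 38. Over all transcripts 1.99% were rising and 1.07% were falling. Because both sets must stay 2-fold from the control, movement towards it needs a light level at least 3-fold from it. By median the light library was 3.33-fold under the control for the 136 and 2.64-fold above it for the 38. Both sets rest on the same 5 libraries, so these counts are given side by side and were not tested.

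At the limit of the rule, the members just inside were SmedASXL_004116, SmedASXL_019323 and SmedASXL_061391, whose lowest ratios to the control on the CPM + 1 scale were 2.01, 2.01 and 2.02. SmedASXL_004116 had 51.6 CPM in the control and 111, 134, 105 and 115 CPM in the later libraries. SmedASXL_061391 had 24.4 CPM in the control and 62.4, 50.3, 52.5 and 56.5 CPM later.

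Just outside were SmedASXL_072385, SmedASXL_015227 and SmedASXL_012269, with lowest ratios of 1.99, 1.98 and 1.98. SmedASXL_072385 had 79.2 CPM in the control and 179, 178, 159 and 176 CPM later, a course like that of the plateau transcripts. SmedASXL_015227 had 1.20 CPM in the control and 4.16, 3.36, 4.16 and 3.50 CPM later, and SmedASXL_012269 had 19.5 CPM and then 44.6, 48.6, 39.6 and 39.9 CPM. The limit thus separates transcripts with near-equal values.

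How alike the members are was described by the quotient of the CPM of 2 members across the 5 libraries, given as its highest over its lowest value. Over the 703 pairs the median was 1.93. The pair with the most constant quotient was SmedASXL_004069 and SmedASXL_000097, at 1.05. SmedASXL_004069 had 3.93 CPM in the control and 10.6, 9.44, 9.47 and 9.04 CPM in the later libraries, and SmedASXL_000097 had 5.49 CPM and then 15.1, 13.3, 12.8 and 12.7 CPM. Contigs that share sequence can share reads, and sequences were not used here, so whether the 2 numbers stand for 1 gene was not tested. Only 2 pairs were under 1.1, and within the 28 pairs of falling transcripts the lowest was 1.18.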

How the data were processed

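The deposited table gives 1 signal value for each transcript in each library, headed CPM + 1 per the file headers. Per the series' design text, 50-base single-end reads were trimmed by 15 bases at the 3' end and aligned with bowtie2 to the SmedASXL transcriptome. The submitters' processing notes name Bowtie2 2.2.4 and bcl2fastq 1.8.3. Sources used here do not say how multiply matching reads or strand were treated. The authors' deposited ratio column equals the quotient of the control and light columns within 1e-06 and was not used further.

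After 1 was subtracted, 100% of the values were whole multiples of 1 read to within 0.001 reads, and intervals were computed from those reads. A count test needs replicates and was not run, and the leave-one-out of replicates does not apply. The 5 library columns were all used and 0 were left out. Members and lists were chosen with earlier results of these data known. All 38 may be named; full values are given for up to 8 per course by mean CPM, for those nearest the limit and for the highest ratio to the control in each library, and a few others are shown for a pattern. The calculation was tested on simulated data, with Python 3.11.15, numpy 2.4.6, pandas 2.3.3 and scipy 1.17.1.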

Additional observations from a re-analysis of the deposited data

How the results depend on the processing

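The number of members depends on the pseudocount and the threshold. It was 76 with a pseudocount of 0.1 CPM and 20 with 5 CPM, 243 at 1.5-fold and 0 at 4-fold, all against 38. It was 31 with trimmed-mean (TMM) scaling and 33 with median-of-ratios scaling, each a part of the 38. Filters from none to a mean of 10 CPM gave 33 to 38. When the rule left out 1 later library, a choice made after seeing the data, 41 passed without light, 43 without the 1-day, 39 without the 2-day and 71 without the 8-day library, so the 8-day library removes the most.

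With membership kept, the plateau course held 13 transcripts at a limit of 25% in place of 1.5-fold, where the count was 22. It held 30 at a limit of 2-fold. The falling course held 5 with a pseudocount of 5 CPM and 4 at a limit of 2-fold, in place of 8. It held 12 at 25% and 9 under each scaling. The uneven course held 9 at 25%, 2 at 2-fold and 4 under each scaling, in place of 5. SmedASXL_042310 passed from uneven to falling under both scalings, with log2 ratios of 8-day dark return to light of -0.622 (TMM) and -0.643 (median-of-ratios). The rising course held 2 to 4 throughout, and with membership kept the same 3 were rising under both scalings and pseudocounts. Of the 3, SmedASXL_018153 and SmedASXL_019323 are near the limit of the rule, with lowest ratios to the control of 2.03 and 2.01. Both fall short of the 2-fold limit under TMM scaling and with a pseudocount of 5 CPM. SmedASXL_018153 also falls short under median-of-ratios scaling. The cause of these shifts with the pseudocount is its own construction, which shrinks ratios of low levels, and with the limit the definition itself. The median log2 ratio of 8-day dark return to light ran from -0.27 to -0.17 over the alternatives. No rising or falling transcript changed direction, and the sign changed for 4 plateau transcripts near 0. No paired analysis was possible because each condition has 1 library. Depth limits SmedASXL_067175 most, with 7 reads in the control.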

Other observations

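Among the light-raised transcripts outside the set, 3 carry a number directly next to that of a member. Only neighbours raised in light were looked for. How often transcripts as a whole have such a neighbour was not counted, so nothing is read from the 3. SmedASXL_016116 had 59.8 CPM in the dark control, 261 CPM in light, and 183, 164 and 111 CPM at the 3 dark-return times. Its neighbour SmedASXL_016117, a plateau member, had 72.3 CPM in the control, 223 CPM in light and 176 CPM after 8 days. SmedASXL_013874 had 8.51 CPM in the control, 111 CPM in light and 11.5 CPM after 8 days, while its neighbour SmedASXL_013873 had 22.0, 76.3 and 62.4 CPM. SmedASXL_074863 had 0.880 CPM in the control, 12.8 CPM in light and 1.37 CPM after 8 days, while its neighbour SmedASXL_074864 had 2.75, 11.9 and 7.12 CPM. The rule and the choice of neighbours fix that all 6 were raised in light and that only the members stayed at least 2-fold above the control in all 4 later libraries. Whether adjacent numbers mark related contigs was not tested, since the table holds no sequences. The pattern was noticed in these data.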
